A study of Mus musculus with 14 samples.

Results

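Cadherins and integrins, the main receptor families by which cells hold on to each other and to the extracellular matrix, were examined in chromatin of mouse embryonic stem cells (mESC). All protein-coding genes of the GENCODE annotation (M21, mm10/GRCm38) whose symbol began with Cdh and a digit, with Itga, or with Itgb and a digit were taken, and the clustered protocadherins were left out. This rule gave 53 of 21938 genes. They comprised 23 cadherin genes and 27 integrin subunit genes, together with 3 genes that share the integrin prefix but encode binding proteins (Itgb1bp1, Itgb1bp2 and Itgb3bp). The cells were 81K1, a single clone of the mESC line OG2 that carries an shRNA against Smarcb1, inducible by doxycycline, at the Rosa26 locus. Smarcb1 is a core subunit of esBAF, the BAF chromatin remodelling complex of embryonic stem cells. Control cells carried the same construct and were untreated, whereas Smarcb1 knockdown (kd) cells received 1 µg/ml doxycycline for 72 h, so that doxycycline and the knockdown cannot be told apart. Regions bound by Smarca4 (the ATPase of esBAF) and Ezh2 (the methyltransferase of Polycomb repressive complex PRC2) and regions carrying H3K27me3, H3K27ac and H3K4me3 were available from 1 library per antibody and condition, 10 libraries in all. No value below therefore has a replicate error, and no difference between control and kd was tested.

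Classical cadherins bind a cadherin of the same kind on the neighbouring cell through their extracellular repeats and anchor to actin through catenins. Integrins are pairs of an alpha and a beta subunit that bind matrix proteins such as fibronectin, laminin and collagen, and that signal through adaptors such as talin, kindlin and focal adhesion kinase. H3K4me3 marks CpG-rich promoters and H3K27ac active promoters and enhancers. H3K27me3, deposited by PRC2, marks repressed genes, and in mESC many developmental genes carry it together with H3K4me3, a state known as bivalent.

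The promoters behind the main patterns are shown first. Each sequence covers the 250 bases before the start of the gene on its coding strand, taken from RefSeq (GRCm38), with CG dinucleotides in capitals. Itgb1 was chosen as the beta subunit shared by most matrix receptors, and lies at chr8:128685404-128685653 on the plus strand. The other 4 are the members with the strongest promoter region called in 1 condition alone among those whose RefSeq start lay within 30 bases of the GENCODE start. They are Itga2 for H3K4me3 in kd (chr13:114932101-114932350, minus strand), Cdh26 for H3K27me3 in control (chr2:178430265-178430514, plus strand), Itga5 for H3K27ac in kd (chr15:103366792-103367041, minus strand) and Itga11 for Ezh2 in kd (chr9:62677605-62677854, plus strand).
Itgb1: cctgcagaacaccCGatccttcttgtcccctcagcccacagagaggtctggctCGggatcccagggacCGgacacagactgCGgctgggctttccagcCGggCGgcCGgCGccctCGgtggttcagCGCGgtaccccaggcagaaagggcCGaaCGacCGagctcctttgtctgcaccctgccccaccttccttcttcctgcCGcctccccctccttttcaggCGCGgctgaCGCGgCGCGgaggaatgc
Itga2: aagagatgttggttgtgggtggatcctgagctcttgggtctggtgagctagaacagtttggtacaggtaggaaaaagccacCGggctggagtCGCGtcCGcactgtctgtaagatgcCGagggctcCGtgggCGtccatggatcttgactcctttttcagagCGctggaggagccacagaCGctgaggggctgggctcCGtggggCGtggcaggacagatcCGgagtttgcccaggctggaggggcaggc
Cdh26: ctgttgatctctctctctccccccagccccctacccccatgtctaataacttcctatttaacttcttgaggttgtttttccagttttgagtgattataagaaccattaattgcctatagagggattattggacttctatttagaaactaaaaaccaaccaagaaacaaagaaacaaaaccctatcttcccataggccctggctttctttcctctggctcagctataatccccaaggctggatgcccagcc
Itga5: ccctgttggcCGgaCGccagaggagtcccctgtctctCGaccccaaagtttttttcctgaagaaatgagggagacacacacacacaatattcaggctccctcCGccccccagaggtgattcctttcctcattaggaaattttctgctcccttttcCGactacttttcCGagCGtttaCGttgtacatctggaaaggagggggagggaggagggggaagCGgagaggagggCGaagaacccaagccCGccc
Itga11: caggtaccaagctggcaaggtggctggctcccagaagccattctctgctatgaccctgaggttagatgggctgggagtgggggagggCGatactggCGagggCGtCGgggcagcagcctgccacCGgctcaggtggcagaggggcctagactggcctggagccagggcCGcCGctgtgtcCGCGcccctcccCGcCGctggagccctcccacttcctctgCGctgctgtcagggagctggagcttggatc
The Itgb1 stretch holds 21 CG dinucleotides, those of Itga2 and Itga11 hold 12 each, that of Itga5 holds 11, and that of Cdh26 holds 0. The Itgb1 promoter carried H3K4me3 without H3K27me3 in both conditions, and the Cdh26 promoter carried no H3K4me3 in either.

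The lists differed between conditions in ways that touch every count below. The number of regions was 79014 in control and 72339 in kd for Smarca4, 6708 and 5364 for Ezh2, 22909 and 18320 for H3K27me3, 39091 and 51100 for H3K27ac, and 26130 and 33506 for H3K4me3. Regions made up mostly of repeat-masked bases were 45.9% of the Ezh2 list in control but 3.24% in kd, and 79.1% and 74.1% of the H3K27ac lists. Chromosome 8, which carries 9 of the 53 genes and 4.75% of the genome, held 4.68% of the H3K27me3 islands in control and 7.37% in kd. The label of the cells was checked at marker promoters. Of 10 stem cell genes, 9 carried H3K4me3 in both conditions and 7 in control and 9 in kd carried H3K27ac, with neither called at the outermost start of Esrrb. H3K27me3 was called at 3 of the 10 in control and 2 in kd, Esrrb among them in both. None of 20 neural, mesoderm, endoderm, trophoblast and fibroblast markers carried promoter H3K27ac in either condition, whereas 9 in control and 13 in kd carried H3K4me3, and 19 and 18 carried H3K27me3. The chromatin does not measure RNA, and Smarcb1 itself was not assayed in these libraries.

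A promoter (1 kb either side of the transcription start site, TSS) or a gene body (from 1 kb past the TSS to the gene end) was called for an antibody when a region of the deposited list overlapped it by at least 1 bp. Counting promoter and gene body together, 49 of the 53 genes had a region of at least 1 antibody, against 83.3% of all protein-coding genes. Itgax, Itgb1bp2, Itgb2 and Itgb2l had none.

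At promoters, H3K27me3 and Ezh2, but not Smarca4, were called at a larger share of the adhesion genes than of all genes. H3K27me3 was called at 32 of 53 promoters in control and 28 in kd (34.9% and 29.2% of all protein-coding promoters), with 5 promoters called in control alone and 1 in kd alone (8.15% and 2.39%). Ezh2 was called at 8 promoters in control and 16 in kd (7.13% and 12.6%), and all 8 control promoters were called again, so that 0 were control-alone and 8 kd-alone (0.283% and 5.78%). The share of members with Ezh2 was thus above that of all genes in both libraries, 15.1% in control and 30.2% in kd. Many members are long genes, so shares were also taken by gene length. Among genes of at least 50 kb, Ezh2 was called at 23.5% of 34 members in control and 38.2% in kd, against 13.5% and 25%. In kd alone it was 14.7% against 11.9%. Among shorter genes it was 0% and 15.8%, against 5.2% and 8.86%. For H3K27me3 the long members had 67.6% and 58.8%, against 46.8% and 43.9%.

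The active marks were called at a smaller share of members than of all genes. The share was near that of all genes for H3K27ac in control (13.2% against 16.0%) and for H3K4me3 in kd (54.7% against 60.4%). H3K4me3 was called at 24 promoters in control and 29 in kd (56.6% and 60.4% of all), with 1 in control alone and 6 in kd alone (0.779% and 4.59%). H3K27ac was called at 7 and 10 (16.0% and 30.9% of all), with 1 in control alone and 4 in kd alone (1.83% and 16.8%). The 4 H3K27ac promoters of kd alone were 7.55% of the members, below the share of all genes. Smarca4 was called at 33 promoters in each condition (62.3% of members, against 62.5% and 63.5% of all). In control alone 3 were called and in kd alone 3, 5.66% of members each, against 2.69% and 3.69%. Among genes of at least 50 kb, Smarca4 was called at 67.6% of members in control and 64.7% in kd, below the 78.1% of such genes in either.

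**Figure D1:**
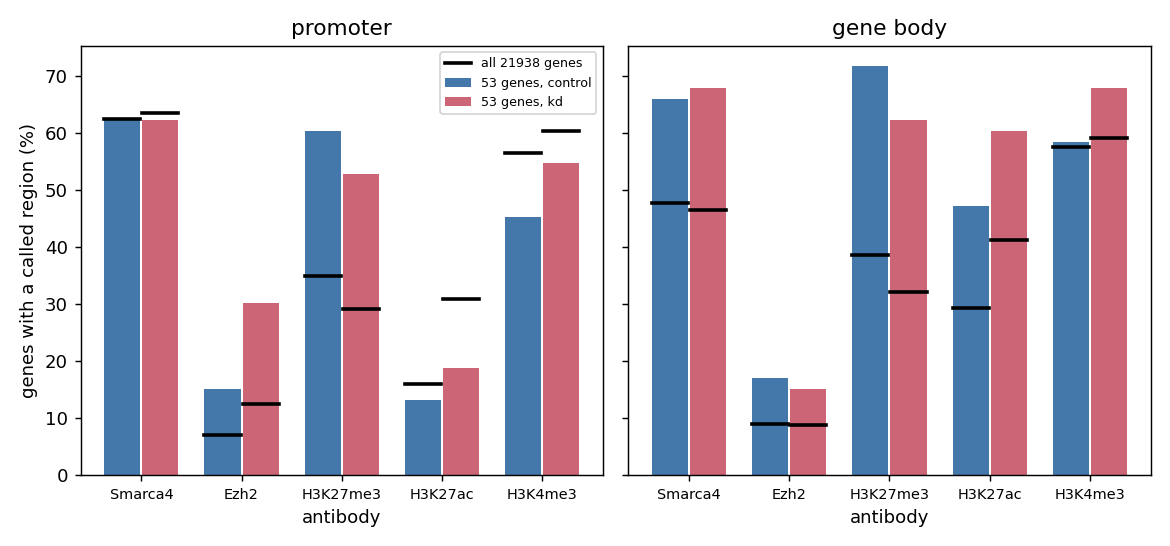
Share of genes with a called region (%, vertical axis) by antibody at the promoter (left) and in the gene body (right). Bars are the 53 cadherin and integrin genes in control (blue) and kd (red) and black lines the 21938 protein-coding genes. For H3K27me3 the bars stand above the lines at promoters (60.4% and 52.8% against 34.9% and 29.2%), and for H3K27ac and H3K4me3 they stand below them.

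H3K4me3 and H3K27me3 together sorted the promoters into 4 classes. In control, 19 of 53 promoters (35.8%) carried both marks, against 21.2% of all protein-coding promoters. H3K27me3 without H3K4me3 was found at 13 (24.5% against 13.7%), H3K4me3 without H3K27me3 at 5 (9.43% against 35.3%), and neither mark at 16 (30.2% against 29.7%). In kd, 21 carried both marks (39.6% against 21.6% of all), 7 H3K27me3 without H3K4me3 (13.2% against 7.6%), 8 H3K4me3 without H3K27me3 (15.1% against 38.8%), and 17 neither (32.1% against 32%). The class with H3K27me3 without H3K4me3 was thus smaller in kd among the members and among all genes.

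The 5 promoters with H3K4me3 and no H3K27me3 in control were Itga5, Itga6, Itgav, Itgb1 and Itgb1bp1, that is, 4 integrin subunits and a binding protein, and no cadherin. Both marks were called in control at Cdh1, Cdh2, Cdh3, Cdh4, Cdh6, Cdh7, Cdh8, Cdh11, Cdh22, Cdh24, Itga1, Itga3, Itga7, Itga8, Itga9, Itgb3, Itgb3bp, Itgb4 and Itgb5. H3K27me3 without H3K4me3 was called at Cdh5, Cdh10, Cdh13, Cdh15, Cdh16, Cdh20, Cdh23, Cdh26, Itga2, Itga2b, Itga4, Itga11 and Itgb8. Neither mark was called at Cdh9, Cdh12, Cdh17, Cdh18, Cdh19, Itga10, Itgad, Itgae, Itgal, Itgam, Itgax, Itgb1bp2, Itgb2, Itgb2l, Itgb6 and Itgb7, and all 16 stayed without either mark in kd. With all coding start sites in place of the outermost one, Cdh12 and Cdh18 carried H3K27me3 in both conditions, Itgal carried it in control, and Itgb3bp had no H3K27me3 call in control.

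**Figure D2:**
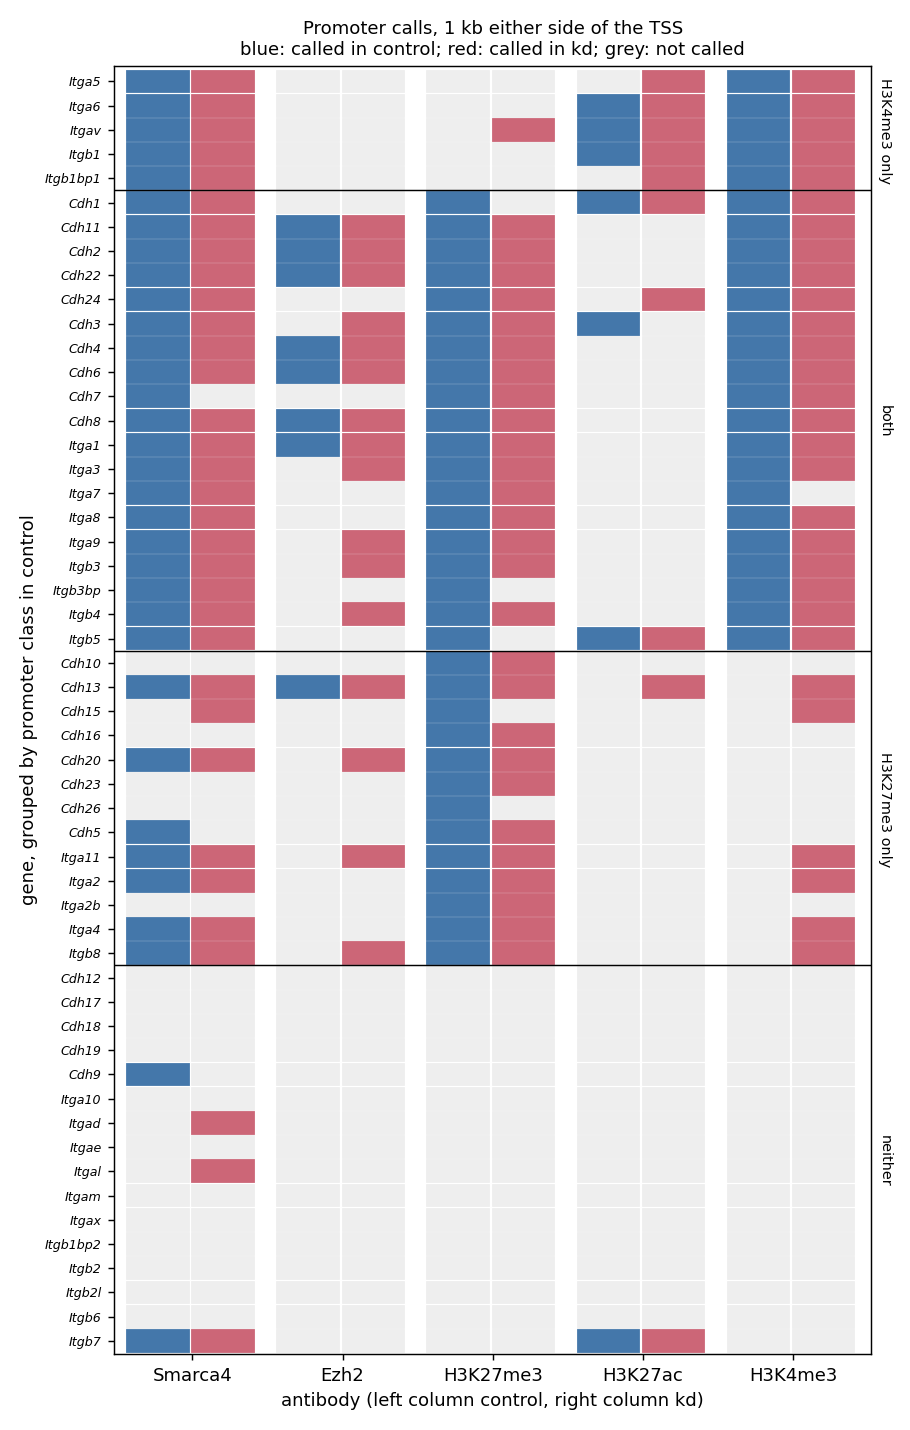
Promoter calls of the 53 genes (rows, grouped by class in control) for 5 antibodies (columns, control left and kd right). Blue and red cells are called in control and kd and grey cells are not called. Smarca4 accompanies all 24 promoters of the upper pair of blocks in control, whereas the bottom block of 16 is nearly empty.

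Of the 24 promoters with H3K4me3 in control, 24 also had a Smarca4 peak. Among the 13 with H3K27me3 without H3K4me3, 7 had one, and among the 16 with neither, 2 (Cdh9 and Itgb7). Over all genes the corresponding shares were 92.6% (H3K4me3 without H3K27me3), 97.5% (both), 49% and 7.9%. Ezh2 was called at 7 of the 19 promoters with both marks in control (29.2% of all promoters with both marks) and at 15 of the 21 so marked in kd (55.5%).

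Cdh1 (E-cadherin, the cadherin that holds mESC colonies together, chr8:106603351-106670246, plus strand) carried H3K27me3 beside the active marks at its promoter in control alone. Smarca4 was called there in both libraries, with a MACS2 score of 447 in control and 601 in kd. H3K4me3 formed an island of 16400 bp in control (SICER p-value 1.82e-109) and of 10800 bp in kd (9.17e-211). H3K27ac formed 1 island of 39600 bp across the promoter in control (SICER p-value 3.62e-23) and 1 of 22200 bp in kd (7.56e-131). In kd 3 further H3K27ac islands lay in the body. The body bases covered by H3K27ac were 37249 bp in control and 39849 bp in kd. Active marks thus covered the start of Cdh1 in both conditions, although neither score nor p-value is scaled between libraries. An H3K27me3 island of 15000 bp (p-value 2.26e-105) ran from position -14350 to 649 (bp relative to the TSS) in control, and no H3K27me3 island touched the promoter in kd.

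This island was the end of a longer stretch. Cdh3 (P-cadherin, chr8:106510891-106557297, plus strand) lies upstream of Cdh1, and the interval between its end and the Cdh1 TSS spans 46.1 kb. It was looked at after the promoter values had been seen. In control, 3 H3K27me3 islands covered 34 kb of it (73.7%), whereas in kd there were 0. H3K27ac covered 3.35 kb (7.27%) with 2 islands in control and 25.1 kb (54.4%) with 7 islands in kd, of which 4 were mostly repeat-masked. The control H3K27me3 islands and the kd H3K27ac islands shared 16.6 kb, which was 48.7% of the former and 66.1% of the latter. With a stricter threshold on both libraries, 2 islands of H3K27me3 remained in control, and H3K27ac kept 1 island in control and 5 in kd. Smarca4 had 8 peaks in the interval in control and 11 in kd, covering 5.37 and 4.6 kb, and Ezh2 had 0 in either library. Of the Smarca4 peaks, 0 in control and 4 in kd were mostly repeat-masked, and 6 and 5 passed the stricter threshold. At the Cdh3 promoter itself H3K27me3 was called in both conditions, over 13200 and 13600 bp.

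**Figure D3:**
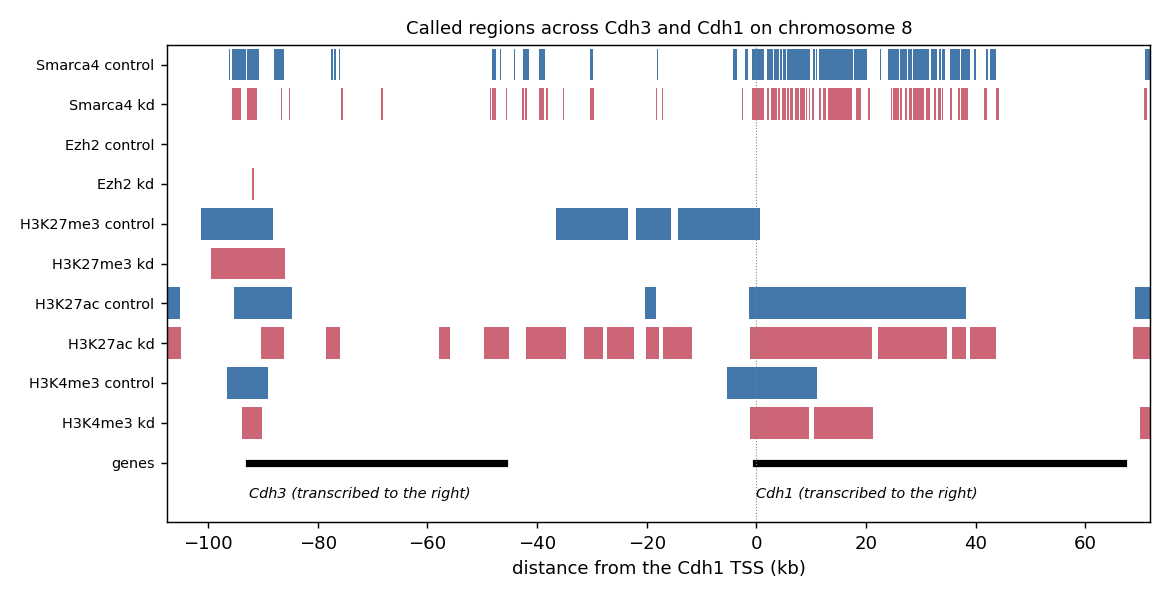
Called regions of 5 antibodies in control (blue) and kd (red) across Cdh3 and Cdh1, by distance from the Cdh1 TSS (kb, horizontal axis). Bars span each region and black lines the genes. H3K27me3 islands lie over 73.7% of the interval between the genes in control and none in kd, where H3K27ac islands lie over 54.4%.

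Of the other type I classical cadherins, Cdh2, Cdh3 and Cdh4 carried promoter H3K27me3 in both libraries and Cdh15 in control alone. At Cdh2 (N-cadherin, typical of neural and mesenchymal cells), both marks, Smarca4 and Ezh2 were called in both libraries. The highest Ezh2 score at its promoter was 126 in control and 438 in kd, and its H3K27me3 island measured 9200 and 17800 bp. At Cdh4 (R-cadherin of retina and brain), the Ezh2 score was 77 in control and 425 in kd, and the H3K27me3 island 13800 and 12400 bp. Both genes therefore remained in the class with both marks. Cdh15 (M-cadherin of skeletal muscle) was the member that passed from H3K27me3 to H3K4me3. It lay under an H3K27me3 island of 22200 bp in control (p-value 2.52e-134), with no Smarca4 or H3K4me3. In kd it had an H3K4me3 island of 400 bp (7.81e-42) and a weak Smarca4 peak (score 26) some way past the TSS, and no H3K27me3. Cdh3 carried H3K27ac at the promoter in control alone, in an island of 10600 bp whose p-value of 7.38e-06 was close to the limit of the list, and Ezh2 in kd alone with a score of 38. Cdh1, Cdh3 and Cdh15 are on chromosome 8.

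The integrins known from stem cell culture carried active marks at their promoters. Itgb1, the partner of most alpha subunits, had a Smarca4 score of 282 in control and 831 in kd, H3K4me3 islands of 4200 and 5600 bp whose p-values were both listed as 0, and H3K27ac islands of 6400 and 4600 bp. Itga6, the laminin receptor subunit, had H3K4me3 islands of 3600 bp in both libraries and H3K27ac islands of 5000 and 8000 bp. Itga5, the fibronectin receptor subunit, had Smarca4 scores of 411 and 484 and H3K4me3 islands of 5200 and 3200 bp. None of these 3 genes carried promoter H3K27me3 or Ezh2 in either library. What set Itga5 apart was H3K27ac, which was absent from its promoter list in control and formed an island of 4400 bp (p-value 6.11e-19) in kd. Itgav, which pairs with several beta subunits to bind vitronectin, carried Smarca4 (415 and 340) and H3K27ac (2200 and 1600 bp) in both libraries. It was the 1 member with promoter H3K27me3 in kd alone, through an island of 1600 bp (2.29e-13) that began 404 bp past the TSS and that the stricter threshold removed.

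Ezh2 promoters differed by 8 between the lists, and by 4 at a score of at least 50. The 8 promoters called in both libraries were Cdh2, Cdh4, Cdh6, Cdh8, Cdh11, Cdh13, Cdh22 and Itga1, 7 cadherins and 1 integrin subunit. The top score was higher in kd at 7 of them and the top peak wider at 8, which was also the case at 95.4% and 97.7% of the 1502 promoters called in both libraries among all genes. Cdh22, a cadherin of the brain, had the highest scores, 637 in control and 1578 in kd. Cdh11, of mesenchyme and bone, had 334 and 628, and Cdh8, of neurons, 68 and 300. The exception was Itga1 (a collagen receptor subunit, 91 and 70), where the peaks of both libraries did not overlap and the control peak was 76.5% repeat-masked.

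The 8 promoters with Ezh2 in kd alone were mostly integrins, namely Itga3, Itga9, Itga11, Itgb3, Itgb4 and Itgb8, with the cadherins Cdh3 and Cdh20. Itga9 had a score of 134 and a width of 673 bp. Itga11, a collagen receptor subunit of fibroblasts, had 95 and 885 bp, and its peak covered most of the sequence shown above. Itgb3, which pairs with Itgav in the vitronectin receptor, had 86 and 509 bp, and Itgb8, which pairs with Itgav to bind latent TGF-beta, 86 and 794 bp. The weaker ones were Itga3 (43), Itgb4 (37, the partner of Itga6 in hemidesmosomes), Cdh3 (38) and Cdh20 (29), and at a score of at least 50 the 4 stronger ones remained. All 8 of these promoters already carried H3K27me3 in control and kept it in kd. Over all genes, Ezh2 in kd was called at 50.8% of promoters with both marks in control. The share was 12% with H3K27me3 without H3K4me3, 0.542% with H3K4me3 without H3K27me3 and 0.0307% with neither. Among integrin subunits Ezh2 was thus called at 1 of 27 promoters in control and 7 of 27 in kd, and among cadherins at 7 of 23 and 9 of 23. The difference of 8 promoters was 8 with lists of equal length and 9 without repeat-masked peaks.

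Promoter H3K27me3 was called in control alone at Cdh1 and Cdh15, described above, and at Cdh26, Itgb5 and Itgb3bp. Cdh26, a cadherin of epithelia, had an island of 4800 bp (p-value 2.07e-37) and no other call at its promoter. Itgb5, which pairs with Itgav, had one of 4200 bp (9.11e-34) and kept H3K4me3 (6200 and 6600 bp) and H3K27ac (7600 and 3200 bp). Itgb3bp, which encodes a kinetochore protein, had one of 4800 bp (1.85e-12), and its promoter window also holds the TSS of Pgm1. The p-values of these 3 islands were higher (weaker) than those at Cdh1 and Cdh15. Among the 27 members called in both libraries, the p-value was higher (weaker) in kd at 18 and lower at 4, and weaker at 70.9% of the 5874 such promoters of all genes. Cdh22 had the widest promoter island, of 107200 bp in control and 56200 bp in kd. Its body, however, was covered over 121546 bp (99.3%) with 2 islands in control and over 107546 bp (87.9%) with 5 in kd.

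Promoter H3K4me3 was called in kd alone at 6 members, all of which carried H3K27me3 in control. Of the 1006 such promoters over all genes, 690 carried H3K27me3 in both libraries and 106 in control alone. Itga2 (a collagen receptor subunit) had an island of 1600 bp with p-value 1.18e-40, Itga11 of 1800 bp with 4.83e-35 and Itga4 (the VCAM-1 receptor subunit) of 1000 bp with 2.35e-33. Itgb8 had one of 1200 bp with 2.95e-29 and Cdh13 one of 3600 bp with 8.49e-27, and the sixth was Cdh15. With the exception of Cdh15, these genes kept H3K27me3 and thereby joined the promoters with both marks. The reverse was seen at Itga7, the laminin receptor subunit of muscle, whose H3K4me3 island of 2600 bp (9.49e-14) was in the control list alone while H3K27me3 covered 23400 and 18000 bp. At the 23 promoters called in both libraries the H3K4me3 p-value was lower in kd at 21 and higher at 1. Of 12239 such promoters of all genes, it was lower at 69.1% and higher at 17.1%, and the rest were tied. Promoters listed with a p-value of 0 in both libraries count as tied. The members had weaker islands in control (median -log10 p-value 58.9 against 132), so these shares are not on an equal footing. Without the genes of chromosome 8 the surplus of H3K4me3 promoters in kd was 3 instead of 5.

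H3K27ac reached few members. It was called in both libraries at Cdh1, Itga6, Itgav, Itgb1, Itgb5 and Itgb7. Besides Itga5, the promoters called in kd alone were Cdh24 (1600 bp, p-value 2.22e-12), Cdh13 (600 bp, 5.78e-08) and Itgb1bp1 (1800 bp, 4.74e-07), of which the last also holds the TSS of Cpsf3 and that of Cdh24 the TSS of Gm17606. Itgb7, a beta subunit of lymphocytes, was unusual in lacking H3K4me3 and H3K27me3 at its TSS while H3K27ac islands of 23400 bp in control and 20800 bp in kd (5.46e-160) reached its promoter. Equal list lengths left 7 promoters in control and 8 in kd.

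At Smarca4 the promoter calls were the same in number but the members' peaks had, on the whole, lower scores in kd. Of 30 promoters called in both libraries, the top peak scored lower in kd at 20 and was narrower at 21, whereas over the 13117 such promoters of all genes 48.2% scored lower and 54.7% were narrower. The median top score was 190 in control and 164 in kd for the members, and 171 in both for all genes. The highest scores in control were those of Itgb5 (517, and 345 in kd), Cdh3 (458 and 305), Cdh1 (447 and 601), Itgav (415 and 340) and Itga5 (411 and 484). These 5 all carried H3K4me3. The control-alone promoters were Cdh5 (VE-cadherin of endothelium, score 34), Cdh7 (64) and Cdh9 (64), all type II cadherins, and the kd-alone ones were Cdh15 (26), Itgal (45) and Itgad (81), the latter a pair of leukocyte subunits. With scores of at least 50 asked for, 32 promoters were called in control and 26 in kd.

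The gene bodies of this family are long. The median gene region, promoter side included (1 kb before the TSS), was 78.7 kb (range 5.45 to 1141 kb) against 18.4 kb over all protein-coding genes, and 34 of 53 (64.2%) reached 50 kb, against 23.3%. Body calls must be read with that in mind, since a longer gene is more often hit.

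H3K27me3 was called in 38 bodies in control and 33 in kd (38.6% and 32.2% of all), 7 in control alone and 2 in kd alone (9.02% and 2.65%). With islands that touch the promoter left out, 25 bodies in control and 21 in kd were called. Smarca4 was called in 35 and 36 bodies (47.7% and 46.5%), 3 in control alone and 4 in kd alone (7.78% and 6.49%). Ezh2 was called in 9 and 8 bodies (9.06% and 8.79%), 3 in control alone and 2 in kd alone (3.66% and 3.40%), and in 5 and 3 apart from peaks that touch the promoter. Among genes of at least 50 kb, the excess of Smarca4 was no longer seen (73.5% of 34 members against 72.5% of such genes in control, 67.6% against 70.6% in kd). Among shorter genes the members' share was above that of all such genes (52.6% of 19 members against 40.2% in control, 68.4% against 39.1% in kd). That of H3K27me3 among long genes was still present (79.4% against 55.9%, and 73.5% against 52.7%).

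H3K27ac was called in 25 bodies in control and 32 in kd (29.4% and 41.3%), 2 in control alone and 9 in kd alone (3.61% and 15.6%). Without repeat-masked islands these were 9 bodies in control and 15 in kd. H3K4me3 was called in 31 and 36 bodies (57.5% and 59.1%), 1 in control alone and 6 in kd alone (4.07% and 5.61%). Apart from islands that touch the promoter, there were 16 and 25. For both marks the long members lay near or below long genes in general, with 64.7% against 62.2% for H3K27ac and 70.6% against 81.9% for H3K4me3 in control.

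Smarca4 covered fewer bases of the members' bodies in kd, 95.1 kb (1.15%) against 156 kb (1.88%) in control, as it did over all genes (1.5% against 2.24%). Of the 284 Smarca4 peaks of the members in control, 53.9% overlapped a kd peak, and of the 236 in kd, 72% overlapped a control peak. A few genes with many peaks held most of this difference. Cdh4 had 29 body peaks in control and 5 in kd, with 16947 and 1778 bp covered, and 26 of the 29 control peaks had no counterpart in kd. Cdh13 (T-cadherin, which is held in the membrane by a lipid anchor) had 23 and 10 peaks over 12599 and 2623 bp. Both genes are long and had a promoter peak in both libraries, with a lower top score in kd (322 and 171 at Cdh4, 333 and 102 at Cdh13). The top promoter peak was 1759 and 1556 bp wide at Cdh4, and 3738 and 532 bp at Cdh13. With scores of at least 50, Cdh4 had 18 peaks in control and 3 in kd, and Cdh13 had 15 and 6.

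At Cdh1 the number of peaks and the covered bases pointed in opposite directions. Its body held 26 Smarca4 peaks in control and 36 in kd, yet these covered 30828 bp (46.8% of the body) in control and 22124 bp (33.6%) in kd. The median peak there was 717 bp wide in control and 431 bp in kd, and 22 of the 26 control peaks and 35 of the 36 kd peaks overlapped the other library. Nearly all kd peaks thus overlapped control peaks. The median kd peak was narrower, but some kd peaks were wider than the control peak they overlapped. Lower numbers in kd were also seen at Itgb5 (23 and 14 peaks), Itga6 (21 and 13) and Cdh22 (28 and 23). The largest covered lengths gained in kd were small, at Cdh18 (1345 and 3254 bp), Cdh12 (1193 and 2846 bp) and Cdh20 (489 and 1522 bp). The 5 peaks that Cdh12 had in kd alone were all repeat-masked, and 4 of the 5 at Cdh18 were. Without repeat-masked peaks Cdh20 had 489 and 499 bp.

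**Figure D4:**
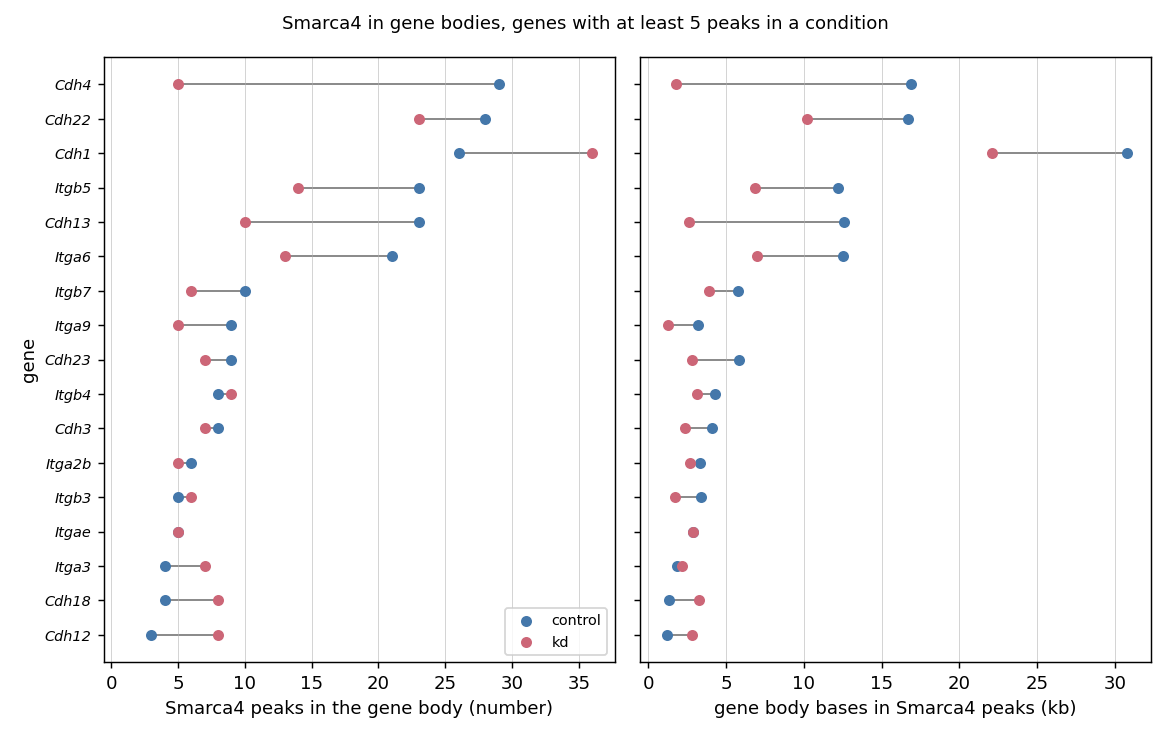
Number of Smarca4 peaks in the gene body (left) and gene body bases within them (kb, right) for the members with at least 5 peaks in a condition, in control (blue) and kd (red). Cdh4 goes from 29 to 5 peaks and from 16.9 to 1.78 kb, whereas Cdh1 has more peaks in kd but fewer covered bases.

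H3K27me3 covered 656 kb of the members' bodies in control (7.91%) and 520 kb in kd (6.28%), against 8.61% and 6.02% over all genes. The largest losses of covered bases were at Cdh23 (a tip-link cadherin of hair cells, 97889 and 29489 bp), Cdh4 (56169 and 13369 bp) and Itga11 (46374 and 12374 bp). In each, a promoter island was called in both libraries and there were fewer islands further into the gene in the kd list. The promoter islands measured 25600 and 20000 bp at Cdh23, 13800 and 12400 bp at Cdh4, and 19400 and 9000 bp at Itga11. The largest gains were at Cdh8 (6270 and 57870 bp) and Cdh11 (9441 and 55241 bp), followed at a distance by Itga8 (2121 and 9321 bp). At Cdh8 the promoter island measured 12400 bp in control and 25200 bp in kd, and the number of body islands was 2 and 9. At Cdh11 the promoter island measured 20400 and 43200 bp, and the body islands numbered 1 and 5. Both are type II cadherins on chromosome 8, and with the stricter threshold they still had 4670 and 40670 bp, and 9441 and 34041 bp.

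The share of H3K27me3 islands on chromosome 8 was higher in the kd list, as given above, and its part in these values was not tested. The 9 members on chromosome 8 together had 97.3 kb of body in H3K27me3 islands in control and 182 kb in kd, and the other 44 had 559 and 338 kb. Over all 1040 protein-coding genes of chromosome 8 the covered share of bodies was lower in kd, 10% against 14.7%. Of other members on this chromosome, Cdh13 had 29867 and 26667 bp, but 23067 and 5867 bp with the stricter threshold, and Cdh16 had 21485 and 20395 bp, but 21485 and 0 bp with it. Cdh5 had 17886 and 16486 bp, Cdh3 had 3309 and 5509 bp, and Cdh15 had 9034 and 0 bp. The Ezh2 list held 8.53% of its peaks on chromosome 8 in control and 6% in kd, but 45.9% and 3.24% of these lists were repeat-masked. Over the genes of chromosome 8, Ezh2 covered 0.336% of bodies in control and 0.436% in kd. It was called at 7.31% and 15.5% of their promoters, against 7.12% and 12.5% on other chromosomes.

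**Figure D5:**
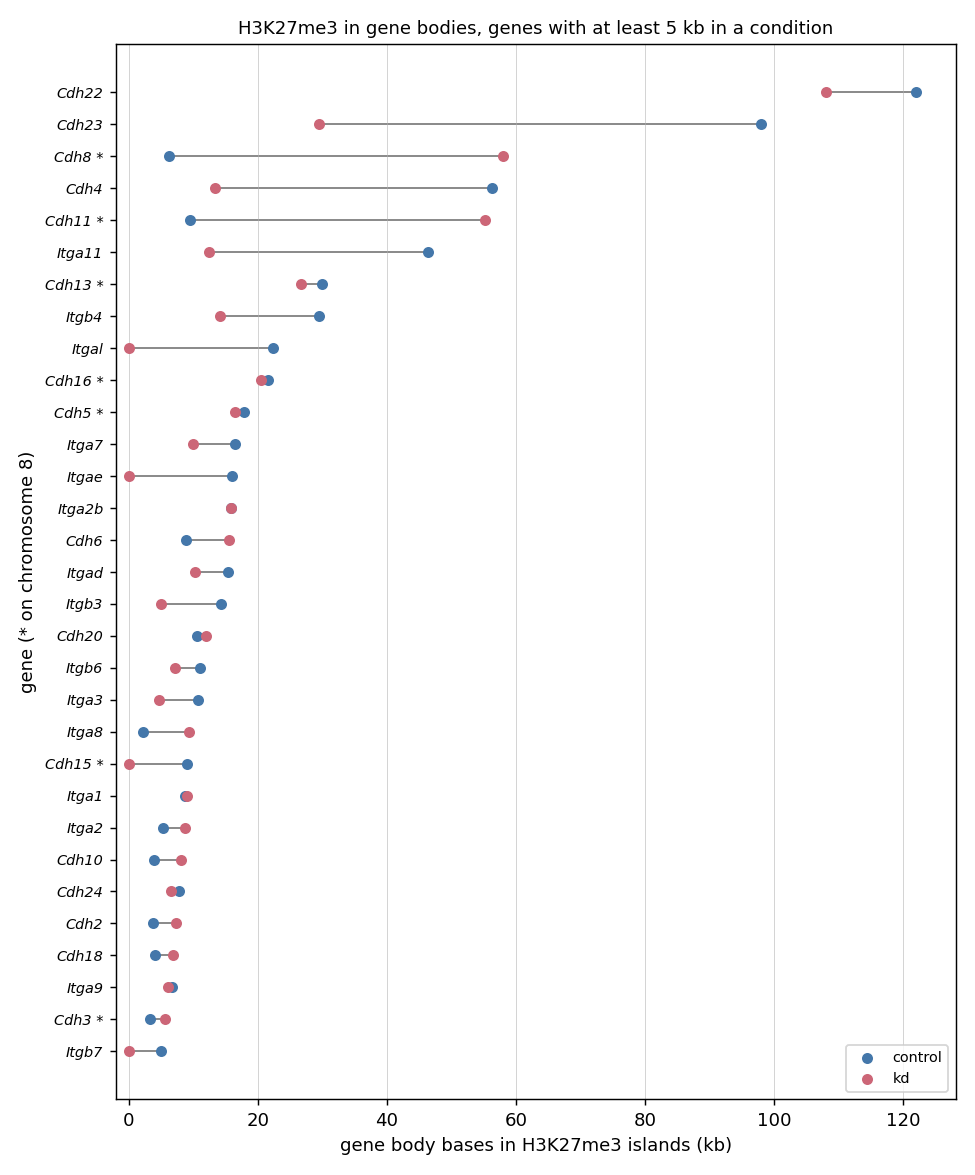
Gene body bases within H3K27me3 islands (kb, horizontal axis) for the 31 members with at least 5 kb in a condition, control in blue and kd in red. Cdh8 and Cdh11 (marked as on chromosome 8) are to the right in kd, at 57.9 and 55.2 kb, while Cdh23, Cdh4 and Itga11 are to the right in control.

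H3K27ac and H3K4me3 within bodies were largely in repeats. Of the whole lists, 79.1% in control and 74.1% in kd were repeat-masked for H3K27ac, and 45.5% and 50.2% for H3K4me3. Of the H3K27ac body islands apart from promoters, 65 of 77 in control and 67 of 89 in kd were mostly repeat-masked, and of those of H3K4me3, 20 of 28 and 37 of 54. Cdh12 and Cdh18, which are among the longest members, supplied many of them. In Cdh12, all 17 H3K27ac islands in control and all 18 in kd were repeat-masked, as were all 7 and 15 H3K4me3 islands, and these held its 29800 and 70200 bp of H3K4me3. In Cdh18, all 13 H3K27ac islands of either library and all 6 and 10 H3K4me3 islands (25200 and 39800 bp) were repeat-masked. These genes had no promoter call of any of the 5 antibodies. Without repeat-masked islands, no body H3K4me3 or H3K27ac was left in either gene.

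After Cdh12 and Cdh18, the largest gain of H3K4me3 was at Cdh1, with 10049 bp of its body covered in control and 19449 bp in kd. The largest H3K27ac gains were at Itgb7 (606 and 7200 bp), Cdh3 (6709 and 12497 bp) and Itga5 (0 and 4162 bp). At Cdh3 the gain was gone without repeat-masked islands (6709 and 6800 bp). The largest H3K27ac losses were at Itgb1 (12346 and 1746 bp), Itgam (9600 and 1600 bp, all repeat-masked) and Itgav (7003 and 0 bp). Without repeat-masked islands Itgb1 had 10746 and 1746 bp and Itgav 2603 and 0 bp. Itgb1 and Itgav thus kept acetylated promoters while islands further inside were missing from the kd list. H3K4me3 losses were smaller, at Cdh13 (13800 and 9667 bp), Itgb5 (10335 and 6735 bp) and Itgb1 (6346 and 2946 bp). Without repeat-masked islands these were 0 and 267 bp at Cdh13 and 4335 and 4135 bp at Itgb5, while Itgb1 stayed at 6346 and 2946 bp. Ezh2 in bodies amounted to 5.2 kb in control and 6.59 kb in kd over all members, with gains at Cdh2 (51 and 1400 bp), Cdh22 (382 and 1006 bp) and Cdh4 (0 and 432 bp), where the promoter peak itself had widened into the body or a further peak was listed. Losses were at Cdh13 (1508 and 153 bp), Itgb6 (271 and 0 bp) and Cdh10 (249 and 0 bp). The peaks of Itgb6 and Cdh10 were repeat-masked, and without such peaks Cdh13 had 484 and 153 bp.

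The sub-family counts that follow come from groups of 4 to 13 genes, and no difference between groups was tested. Over all promoters, H3K27me3 was called at 34.9% in control and 29.2% in kd, and H3K4me3 at 56.6% and 60.4%. The shares were 16.0% and 30.9% for H3K27ac and 7.13% and 12.6% for Ezh2. The 5 type I cadherins carried H3K27me3 at 5 promoters in control and 3 in kd, and H3K4me3 at 4 and 5. The 13 type II cadherins, mostly of neural and mesenchymal tissues, kept 9 promoters with H3K27me3 and 6 with H3K4me3 in both conditions. Of the 5 leukocyte alpha subunits (Itgad, Itgae, Itgal, Itgam and Itgax), 0 promoters carried any of the 3 histone marks or Ezh2 in either library, and neither did that of Itgb2, the partner of all of them but Itgae. Itgb7, the partner of Itgae, carried H3K27ac as given above. The 4 collagen-binding alpha subunits had H3K27me3 at 3 promoters in both conditions and H3K4me3 at 1 in control and 3 in kd. The 9 beta subunits had Ezh2 at 0 promoters in control and 3 in kd.

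The sequence of the promoters followed these classes. RefSeq promoters of 300 bases (250 before to 50 after the start) were at hand for 34 of the 53 genes, and 29 had a start within 1 kb of the GENCODE start. The observed over expected CpG ratio had a median of 0.499 over these 29 and of 0.648 over 14278 promoters of all genes. It was 0.753 for the 4 promoters with H3K4me3 without H3K27me3, 0.745 for the 9 with both marks, 0.322 for the 9 with H3K27me3 without H3K4me3 and 0.308 for the 7 with neither. The corresponding medians over all genes were 0.817, 0.762, 0.325 and 0.174. Among the members the ratio was lowest at Itgb2l (0.093) and Itgb7 (0.216) and highest at Cdh20 (0.935), which carried H3K27me3 without H3K4me3 in spite of it. The GC box GGGCGG was found on either strand in 13 of the 29 promoters (44.8%, against 51.8% of all). The E-box CAGGTG, the sequence read by the Snail and Zeb repressors, was found on either strand in 5 (17.2%, against 19.6%), namely Cdh7, Itga3, Itga11, Itgb5 and Itgb8. Cdh1 is not among the promoters with a sequence here.

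Partner genes were described from lists written down with the members. Of 8 catenin genes, which tie cadherins to actin, 7 carried promoter H3K4me3 in both conditions (56.6% and 60.4% of all promoters), and Ezh2 was called at 0 in control and at Ctnnd2 in kd (score 230). Of 16 integrin adaptors, Ezh2 was called at 0 in control and 4 in kd (7.13% and 12.6% of all promoters), namely Parva (124), Parvb (78), Fermt1 (60) and Zyx (57). H3K27ac was called at 2 of the adaptors in control and 6 in kd, with Tln1, Ilk, Ptk2 and Parvb in kd alone, and H3K4me3 at 10 and 12, beside 16.0% and 30.9% of all promoters for H3K27ac and 56.6% and 60.4% for H3K4me3. The Ezh2 calls of the adaptors were thus in the kd list alone, as at the integrin subunits other than Itga1, which was called in both. Of 5 repressors of Cdh1 (Snai1, Snai2, Zeb1, Zeb2 and Twist1), all carried Smarca4 in both libraries, 5 in control and 4 in kd carried H3K27me3, and 4 and 5 carried H3K4me3. Zeb1 had an H3K27me3 island of 5000 bp in control alone (p-value 6.87e-161) and an H3K27ac island of 2600 bp in kd alone (2.00e-50), and Snai1 had an H3K4me3 island of 2200 bp in kd alone (2.64e-73).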

How the data were processed

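Peak lists deposited by the authors were used and no reads were processed. Per the methods and the submitters' processing notes, the authors trimmed reads (Trim Galore), aligned them to mm10 (Bowtie2), kept unique alignments (SAMtools 1.9), and called each library by itself, Smarca4 and Ezh2 with MACS2 and the 3 histone marks with SICER (window 200 bp, gap 600 bp). The background was the input by the methods and the sample titles, whereas other labels and a figure caption of the paper name IgG. By the methods, Active Motif carried out the work for Smarca4 and H3K27me3 and the authors' side that for the rest. The labels name a single sequencing facility for all libraries. With the methods followed, laboratory and antibody cannot be told apart. The deposited MACS2 score and the deposited SICER p-value (limit 1e-05 for H3K27ac, 1e-10 for the other marks) are not scaled between libraries, and without read counts the depth is unknown. Of 14 samples, the 4 backgrounds were not analysed here.

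Regions were overlapped with windows of genes on chromosomes 1 to 19, X and Y in Python 3.11.15, with the outermost GENCODE start as TSS. The step was tested on simulated data and checked against bedtools 2.31.1, with 0 of 21938 genes differing for any list. Regions counted as repeat-masked from 50% of lower-case bases in GRCm38. The stricter threshold was a score of at least 50, or a p-value of at most 1e-10 for H3K27ac and 1e-20 for the other marks. With 1 library per antibody and condition, no test was made.

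The members, gene lists and rules were chosen with earlier results of these data known. By the rule, values are given for Cdh1, Cdh2, Itgb1, Itga5, Itga6 and Itgav, for promoters called in 1 condition alone (for Ezh2 the widest 6), for the 5 highest Smarca4 promoter scores in control, and for the 3 largest gains and losses of covered body bases per antibody. Other values, among them the Cdh3 to Cdh1 interval, were chosen after they were seen.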

Additional observations from a re-analysis of the deposited data

How the results depend on the processing

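Alternatives were a stricter threshold, lists cut to equal length, an overlap of 200 bp, promoters of 2 kb on each side, all coding start sites, and no repeat-masked regions. Body regions apart from the promoter and leaving out chromosome 8 were chosen after seeing the data. Of 98 comparisons of a main result with an alternative, 68 stayed within 1.5 times of the reported value and direction, 26 moved further and 4 reversed, and the cause was not tested unless the alternative's construction (fewer regions or genes) gives it. Leaving out a replicate was not possible with 1 library per condition. No paired analysis was possible because no group had a second library.

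The kd minus control difference in promoters was 0 for Smarca4, and was -6 with the stricter threshold, 1 with promoters of 2 kb and -1 with all coding start sites. For Ezh2 it was 8, and 4 with the stricter threshold. For H3K27me3 it was -4, and -2 without chromosome 8. For H3K27ac it was 3, and 1 with equal lengths. For H3K4me3 it was 5, and 3 without chromosome 8.

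In bodies, the Smarca4 difference of 1 was 2 with equal lengths, with 200 bp of overlap, with all coding start sites, without repeat-masked regions and apart from the promoter, 3 with promoters of 2 kb, and -2 without chromosome 8. The Ezh2 difference of -1 was 0 with equal lengths, 200 bp of overlap or promoters of 2 kb, 2 without repeat-masked regions and -2 apart from the promoter. The H3K27ac difference of 7 was 4 with the stricter threshold and 2 with equal lengths. The H3K4me3 difference of 5 was 2 with equal lengths, and 9 with promoters of 2 kb or apart from the promoter. Body differences of Smarca4 and Ezh2 are too small to read a direction from.

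The log2 ratio of covered body bases, kd over control, was 0.0232 for H3K27ac, -0.0057 with the stricter threshold, -0.1744 with equal lengths and 0.1797 without repeat-masked regions. For H3K4me3 it was 0.6803, and 0.4496, 0.1563 and 0.3554 in the same order. For H3K27me3 it was -0.3345 and stayed negative in each. The number of promoters with both H3K4me3 and H3K27me3 stayed between 15 and 19 in control and between 17 and 21 in kd.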
